A study of Homo sapiens with 6 samples.

Results

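The aldo-keto reductases described here are 10 genes, AKR1A1, AKR1B1, AKR1B10, AKR1B15, AKR1C1, AKR1C2, AKR1C3, AKR1E2, AKR7A2 and AKR7A3, taken by exact gene symbol from a table of 62754 genes. They were measured by mRNA sequencing of HFF-2 human dermal fibroblasts (HDFs), foreskin fibroblasts acquired from ATCC. HDFs were transduced with a lentiviral pLKO hairpin against TFEB, a transcription factor of lysosomal and autophagy genes (TFEB-KD, 3 libraries), or with a scramble hairpin (SCR, 3 libraries, labelled WT for genotype), and were kept under puromycin selection. Both groups received 40 μM tert-butyl hydroperoxide (tBHP, an organic peroxide oxidant) for 1 h, 2 times a day, and were taken at day 4, so every comparison is between oxidant-treated cells, with no unexposed cells among these libraries. A single hairpin stands for the knockdown. The study's methods state independent biological replicates, but the labels do not say which cultures the libraries came from, so the p-values cover the spread between these libraries. Total counts were 55135426, 38769620 and 49992885 in SCR replicates 1 to 3, and 42433767, 43002866 and 51499335 in TFEB-KD replicates 1 to 3.

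Aldo-keto reductases use NADPH to reduce aldehydes and ketones to alcohols. Oxidants such as tBHP peroxidise membrane lipids, which break down to reactive aldehydes such as hydroxynonenal and acrolein, and several enzymes of this family reduce these aldehydes. AKR1B1 is aldose reductase, and AKR1B10 reduces retinal and lipid aldehydes. The AKR1C enzymes are hydroxysteroid dehydrogenases that also act on prostaglandins and lipid aldehydes, and the AKR7A enzymes reduce aflatoxin dialdehyde and succinic semialdehyde. AKR1B10 and the AKR1C genes are widely used as readouts of NRF2 (NFE2L2), the transcription factor that binds antioxidant response elements.

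The AKR1C genes sit side by side on chromosome 10 of GRCh38, AKR1C1 (ENSG00000187134.14) at chr10:4963253-4983283 on the plus strand, AKR1C2 (ENSG00000151632.18) at chr10:4987775-5018031 on the minus strand and AKR1C3 (ENSG00000196139.14) at chr10:5035354-5107686 on the plus strand. The coding sequences of AKR1C1 and AKR1C2 were identical at 950 of 969 positions (98%), with a longest identical run of 186 bases, and AKR1C3 shared 91.4% of positions with AKR1C1 and 91% with AKR1C2. The bases before the starts of AKR1C1 and AKR1C2 were also closely alike. In the 250 bases before the RefSeq start (GRCh38.p14), AKR1C1 and AKR1C2 shared an unbroken run of 245 bases, with 96.5% of aligned positions identical. For AKR1C3, only the first window listed, chr10:5048531-5048780, was compared, and not that at chr10:5094164-5094413. Between AKR1C1 and this AKR1C3 window the longest shared run was 12 bases, with 71.4% of aligned positions identical. Parts of the AKR1C1 and AKR1C2 windows lie in annotated exons, and the AKR1C2 window lies within the annotated span of its gene. The longest stretches of these windows outside every annotated exon, 88 bases for AKR1C1 and 84 for AKR1C2, are shown. They were chosen because they belong to the pair of genes that, among the aldo-keto reductases tested, rose most in fold in TFEB-KD. The stretches are AKR1C1 at chr10:4963165-4963252 on the plus strand and AKR1C2 at chr10:5004024-5004107 on the minus strand. Capitals mark the 4 bases outside the shared run.
AKR1C1: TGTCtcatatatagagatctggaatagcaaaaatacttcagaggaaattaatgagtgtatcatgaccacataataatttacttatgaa
AKR1C2: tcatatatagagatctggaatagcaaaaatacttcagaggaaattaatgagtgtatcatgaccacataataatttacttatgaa

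Promoter windows of 300 bases (250 before to 50 after the start) were found in RefSeq for 8 of the 10 genes, 12 windows in all, with none for AKR1B10 and AKR1B15. They were searched on both strands for the core of the antioxidant response element (TGACNNNGC), the AP-1 site (TGANTCA), the E-box (CACGTG) and the E-box with the flank of the CLEAR element (TCACGTG, which contains the E-box), the motif through which TFEB is known to bind. Of 35116 RefSeq windows, 13.3% held the first, 7.71% the second, 7.26% the third and 3.71% the fourth. Among the aldo-keto reductases, AKR7A2 held the antioxidant core at 3 places and AKR1A1 held an E-box, and no other match was present in these windows. Bases farther from the start were not searched, so a gene without a match here may still hold one elsewhere. The AKR7A2 stretch at chr1:19312145-19312325 on the minus strand and a 30-base site of AKR1A1 at chr1:45550796-45550825 on the plus strand, which lies within an annotated exon, are shown because they hold these matches, given in capitals.
AKR7A2: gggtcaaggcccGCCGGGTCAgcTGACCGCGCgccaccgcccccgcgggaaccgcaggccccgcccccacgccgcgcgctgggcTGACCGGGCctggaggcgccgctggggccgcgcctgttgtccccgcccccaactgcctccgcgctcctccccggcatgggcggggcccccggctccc
AKR1A1: ggccccgccccttgcaccgccCACGTGgcc
A match is a description of these letters and not of binding.

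TFEB itself was checked first. Counts were 809, 562 and 784.5 in SCR, against 420, 364 and 471 in TFEB-KD. No TFEB-KD library reached the SCR range, and the log2 fold change (TFEB-KD over SCR, as for every fold change here) was -0.80 (standard error 0.0771, edgeR adjusted p = 1.37e-05). Fibroblast identity was checked with marker genes. All 12 fibroblast markers were detected, with VIM the most abundant at a mean of 4138.7 TPM (a level per transcript length that sums to the same in every library). Their summed level was 12558, 12488 and 12784 TPM in SCR and 9794, 9793.2 and 9764.1 TPM in TFEB-KD. Of the 12 markers, 7 were called lower and 2 higher, beside 15.0% lower and 9.99% higher over all genes tested. Markers of the cells' own type thus moved with the groups. The part of this shift in the results below was not tested. The 6 melanocyte markers and the 6 endothelial markers stayed under 1 TPM in every library, with TYR at 0 counts in all 6. Their most abundant genes were called lower in TFEB-KD, PMEL from 54, 35 and 66 counts to 13, 25 and 37 (log2 fold change -1.07, edgeR adjusted p = 0.016) and TEK from 34, 34 and 50 counts to 21, 16 and 9 (-1.36, adjusted p = 0.0124). These calls on few counts were lost in 4 of 15 alternative fits (another scaling, filter, tool or replicate block, or a library left out) for PMEL and in 3 of 14 for TEK, among them limma on TPM. Summed levels were 0.704, 1.01 and 0.901 TPM in SCR and 0.285, 0.684 and 0.632 TPM in TFEB-KD for melanocyte markers, and 0.442, 0.363 and 0.431 TPM against 0.312, 0.252 and 0.302 TPM for endothelial markers. Of 8 keratinocyte markers, KRT10 (mean 65.7 TPM) carried nearly all of the summed level of 73.4, 74.5 and 70.3 TPM in SCR and 65.2, 66.3 and 69.1 TPM in TFEB-KD, while KRT5, KRT14, KRT1, CDH1 and TP63 averaged under 1 TPM. The list also holds EPCAM and KRT15, and 6 of the 8 genes stayed under 1 TPM in every library. Of 6 immune markers, 5 stayed under 1 TPM, PTPRC among them, and CD68, which encodes a lysosomal membrane protein, rose from 92.3 ± 3.45 to 133.2 ± 9.85 TPM (SD, n = 3 each, log2 fold change 0.63, edgeR adjusted p = 6.12e-07). These are bulk libraries, in which fewer cells of a type and less RNA per cell cannot be told apart.

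Of the 10 aldo-keto reductases, AKR1C1, AKR1C2, AKR1B1 and AKR1B10 were called higher in TFEB-KD, AKR1A1 was called lower, AKR1E2 and AKR7A2 were tested and not called, and AKR1B15, AKR1C3 and AKR7A3 had too few counts to be tested. Here a gene was called where its adjusted p was under 0.05 and its log2 fold change exceeded 0.36 in size. Across all 16931 genes tested, 9.99% were called higher and 15.0% lower (1691 and 2532 genes). Scaled by library size without TMM, 2497 genes were higher and 2047 lower. Each of the 7 genes tested lay above the filter's cutoff of 0.215 CPM (counts scaled to a common library total) in all 6 libraries, so none entered through a single group. No overlap in CPM was seen between the groups for the 5 genes called, which is to be read against 55.5% of all genes tested. The genes were chosen with earlier results of these data known, so these counts describe the family and are not a test of it.

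**Figure D1:**
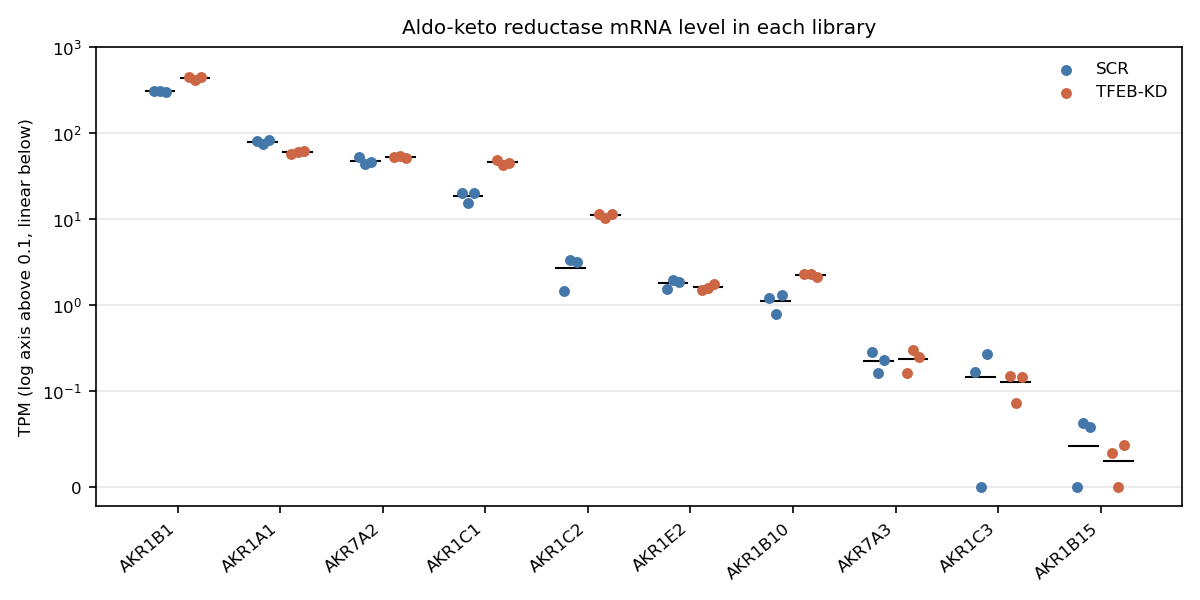
TPM of each aldo-keto reductase in the 3 SCR (blue) and 3 TFEB-KD (orange) libraries, with the group mean as a bar, on an axis that is logarithmic above 0.1 TPM and linear below. Levels span from AKR1B1 above 300 TPM to AKR1B15 under 0.1 TPM, and the groups are separate for AKR1B1, AKR1A1, AKR1C1, AKR1C2 and AKR1B10.

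The family was dominated by AKR1B1. In order of mean TPM in SCR, AKR1B1 (307.0) was followed by AKR1A1 (79.1), AKR7A2 (47.4), AKR1C1 (18.5), AKR1C2 (2.68), AKR1E2 (1.80), AKR1B10 (1.11), AKR7A3 (0.227), AKR1C3 (0.148) and AKR1B15 (0.0434). Neighbours in this order had separate ranges over the SCR libraries except AKR1C2 and AKR1E2, AKR7A3 and AKR1C3, and AKR1C3 and AKR1B15. In TFEB-KD the order differed at a single place, with AKR1B10 (2.27 TPM) above AKR1E2 (1.61 TPM). Summed over the 10 genes, the level was 469.6, 444.1 and 460.1 TPM in SCR and 617.2, 581.3 and 623.1 TPM in TFEB-KD. Every TFEB-KD library was above every SCR library (457.9 ± 12.9 against 607.2 ± 22.6 TPM, SD, n = 3 each, exact two-sided permutation p = 0.1, the smallest that 3 against 3 allow). Within that sum, AKR1A1 went from 17.3% ± 0.69 to 9.87% ± 0.675, AKR1B1 from 67.1% ± 1.37 to 71.4% ± 0.998, AKR1C1 from 4.02% ± 0.477 to 7.50% ± 0.30 and AKR7A2 from 10.3% ± 0.666 to 8.72% ± 0.637 (SD, n = 3 each, exact two-sided permutation p = 0.1 for each).

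AKR1C1, a hydroxysteroid dehydrogenase best known for inactivating progesterone, had estimated counts of 1306.3, 680 and 903.4 in SCR and 2260.1, 2162.6 and 2795.1 in TFEB-KD. In CPM it was at 24.1, 18.1 and 18.9 in SCR and at 51.7, 48.7 and 52.7 in TFEB-KD. The highest SCR library, replicate 1, lay well under the lowest TFEB-KD library. The log2 fold change was 1.32 (standard error 0.0926, 95% interval 1.11 to 1.52, edgeR adjusted p = 1.28e-06), a fold of 2.49. Its level in TPM went from 18.5 ± 2.62 to 45.5 ± 2.75 (SD, n = 3 each).

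AKR1C2, which reduces dihydrotestosterone and other keto-steroids, was less abundant and showed the largest fold change of the 7 genes tested. Its estimated counts were 110.4, 90 and 98.6 in SCR and 373.8, 348.4 and 452.6 in TFEB-KD. In CPM the level was 2.04, 2.39 and 2.07 in SCR against 8.56, 7.85 and 8.53 in TFEB-KD. The SCR libraries sat close together, and each TFEB-KD library was more than 3 times the highest of them. On the log2 scale the change was 1.95 (standard error 0.102, 95% interval 1.72 to 2.17, edgeR adjusted p = 1.61e-07), a fold of 3.85. In TPM the SCR libraries spread more, at 1.47, 3.37 and 3.21, against 11.6, 10.2 and 11.5 in TFEB-KD. The low TPM of SCR replicate 1 went with the transcript length the authors' pipeline assigned to the gene. Relative to the mean of the 6 libraries, that length was 165.7% in SCR replicate 1 and between 76.6% and 93.5% in the other 5. Length did not separate the groups (exact two-sided permutation p = 1).

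AKR1C3, a prostaglandin F synthase and testosterone-forming dehydrogenase, was close to the floor. It had estimated counts of 7.34, 0 and 8.03 in SCR and 5.10, 3.04 and 6.25 in TFEB-KD, with overlapping groups. A count of 0 in SCR replicate 2 allows up to 0.0797 CPM (3 counts, counting error only). AKR1C4, the liver member of the cluster, had 0 counts in all 6 libraries. With no gene filter, the log2 fold change of AKR1C3 was -0.06 (standard error 0.747, edgeR adjusted p = 1), so no difference was detectable at this depth.

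Reads can be shared between these paralogs. Of all 150-base windows (the read length) in annotated AKR1C1 transcripts, 7.5% also occurred in AKR1C2, and of those in AKR1C2, 10.6% also occurred in AKR1C1. These shares pool the distinct windows of every annotated transcript of a gene, whether expressed here or not. They do not give the share of reads that fit both genes, which was not measured. AKR1C1, AKR1C2 and AKR1C3 were therefore also summed before the fit. The sum was at 26.3, 20.4 and 21.2 CPM in SCR and at 60.4, 56.6 and 61.3 CPM in TFEB-KD. The groups were separate (log2 fold change 1.39, standard error 0.0844, 95% interval 1.20 to 1.57, edgeR adjusted p = 4.57e-07, a fold of 2.61). Leaving out any 1 library put the value for the sum between 1.32 and 1.51.

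The balance within the sum also differed between the groups. AKR1C2 made up 7.75%, 11.7% and 9.76% of summed AKR1C counts in SCR and 14.2%, 13.9% and 13.9% in TFEB-KD. On the TPM scale its share was 6.82%, 17.9% and 13.7% in SCR and 19.3%, 19.2% and 20.1% in TFEB-KD. No SCR library reached the TFEB-KD range on either scale, and the TFEB-KD libraries were the more alike. The difference in means was 4.25 percentage points in counts and 6.75 in TPM (exact two-sided permutation p = 0.1 for each, the smallest possible). The TPM difference was 3.75 percentage points without SCR replicate 1, the library with the long AKR1C2 length, and 9.31 without SCR replicate 2. How reads were divided between AKR1C1 and AKR1C2 rests on the estimates of the authors' pipeline, and its part in the shift of shares was not tested.

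**Figure D2:**
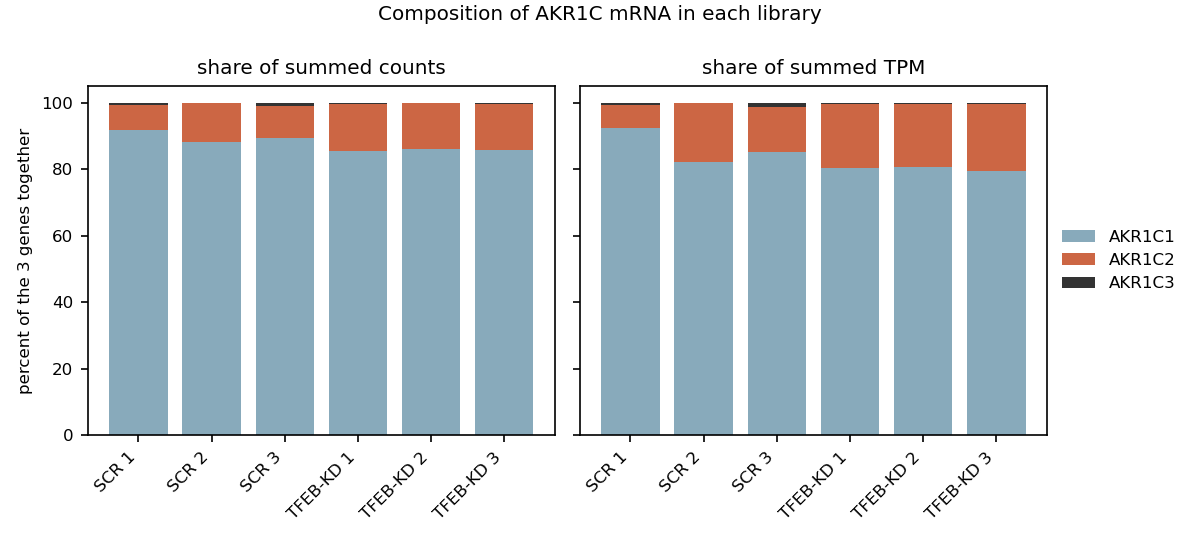
Percent of AKR1C1, AKR1C2 and AKR1C3 in their summed counts (left) and summed TPM (right), stacked for each of the 6 libraries. The AKR1C2 share is between 13.9% and 14.2% of counts in the TFEB-KD libraries and between 7.75% and 11.7% in the SCR libraries.

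AKR1B1 (ENSG00000085662.14, chr7:134442356-134459284, minus strand) is aldose reductase, which turns glucose into sorbitol in the first step of the polyol pathway and reduces lipid aldehydes. SCR libraries held 11406, 7564 and 9888 counts, and TFEB-KD libraries held 12654, 11985 and 14732. As CPM, these values were 210.8, 200.9 and 207.4 against 289.7, 270.1 and 277.5. Both groups were tight and apart. The estimate of 0.44 on the log2 scale (standard error 0.0436, 95% interval 0.34 to 0.53, edgeR adjusted p = 1.75e-05) was the smallest among the genes called higher, a fold of 1.35, but in TPM it was the largest step of the family, from 307.0 ± 4.63 to 433.6 ± 22.1 (SD, n = 3 each).

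AKR1B10 (ENSG00000198074.10, chr7:134527567-134541412, plus strand), which reduces retinal and lipid aldehydes, lies upstream of AKR1B1 on the opposite strand. Counts were low, at 73, 35 and 67 in SCR and 114, 115 and 133 in TFEB-KD. In CPM it was at 1.35, 0.93 and 1.40 in SCR and at 2.61, 2.59 and 2.51 in TFEB-KD. Replicate 2 was the lowest SCR library, and every TFEB-KD library was above the SCR range. Its log2 fold change was 1.05 (standard error 0.174, 95% interval 0.66 to 1.43, edgeR adjusted p = 0.000619), a fold of 2.07. On the log2(TPM + 1) scale, which understates changes at such low levels, limma gave 0.64. AKR1B15 (ENSG00000227471.9, chr7:134549110-134579875), whose coding sequence was 85.9% identical to that of AKR1B10 over the aligned length, had counts of 0, 3 and 2 in SCR and 1, 0 and 3 in TFEB-KD, at or under the floor of 3 counts in each library. No 150-base window was shared between them. The log2 fold change of their sum was 1.02 (standard error 0.163, edgeR adjusted p = 0.000496).

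AKR1A1 (ENSG00000117448.14, chr1:45550543-45570049, plus strand), the general aldehyde reductase, went the other way. Counts of 2887, 1859 and 2578 in SCR stood against 1674, 1765 and 2172 in TFEB-KD, or 53.4, 49.4 and 54.1 CPM against 38.3, 39.8 and 40.9 CPM. The TFEB-KD libraries were all below the lowest SCR library. The log2 fold change was -0.40 (standard error 0.0505, 95% interval -0.51 to -0.29, edgeR adjusted p = 9.97e-05), a fold of 0.759. This value lay close to the threshold of 0.36 in size: without TFEB-KD replicate 1 it was -0.36, and scaled by library size without TMM it was -0.31, both under the threshold for a call. The adjusted p stayed at 0.000841 and 0.000503 in these fits.

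The remaining genes gave no call. AKR7A2 (ENSG00000053371.13, chr1:19303965-19312144, minus strand), which reduces succinic semialdehyde, had counts of 2651, 1544 and 2040 in SCR and 2040, 2151 and 2526 in TFEB-KD. At 49.0, 41.0 and 42.8 CPM against 46.7, 48.5 and 47.6 CPM the groups overlapped, since SCR replicate 1 was the highest of the 6. Its log2 fold change was 0.10 (standard error 0.0637, 95% interval -0.04 to 0.24, edgeR adjusted p = 0.222). Without SCR replicate 1 the adjusted p was 0.0194 and without TMM 0.0382, with log2 fold changes of 0.18 and 0.19 that stayed under the threshold. Without SCR replicate 2 the estimate was 0.05 (adjusted p = 0.574) and without SCR replicate 3 it was 0.07 (adjusted p = 0.428). AKR7A3 (ENSG00000162482.5, chr1:19282573-19288770, minus strand), an aflatoxin aldehyde reductase, had estimated counts of 12.9, 5 and 9 in SCR and 5.61, 10.6 and 10.8 in TFEB-KD, too few for the test, and 6.38% of its windows also occurred in AKR7L. AKR1E2 (ENSG00000165568.18, chr10:4786629-4848062, plus strand), which reduces anhydrofructose, had counts of 83, 75 and 86 in SCR and 61, 69 and 84 in TFEB-KD. Its groups overlapped at 1.53, 1.99 and 1.80 CPM against 1.40, 1.55 and 1.58 CPM. The log2 fold change was -0.23 (95% interval -0.59 to 0.14, edgeR adjusted p = 0.295), so the interval still includes a decrease larger than that of AKR1A1.

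**Figure D3:**
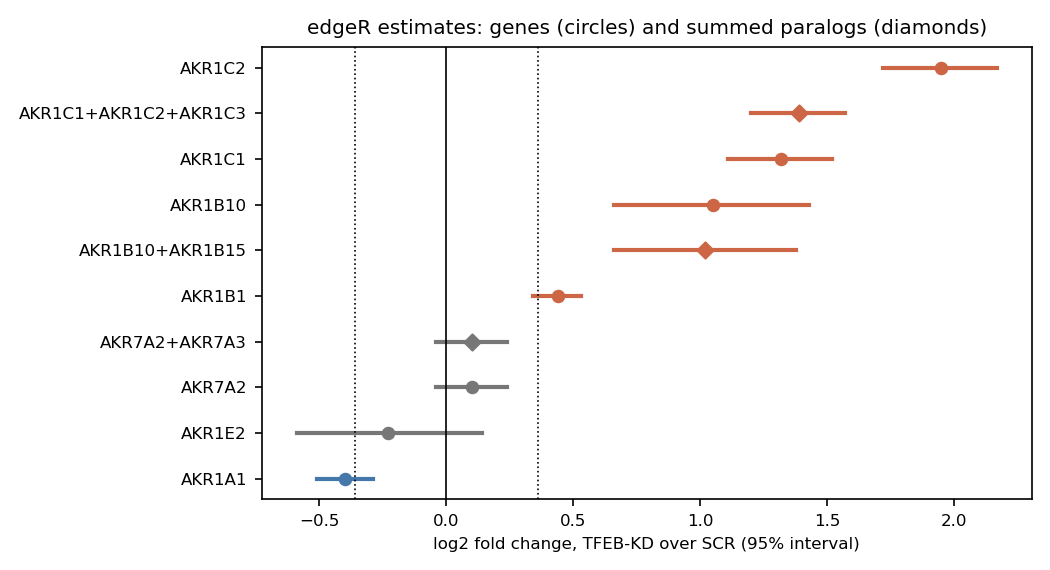
Log2 fold change (TFEB-KD over SCR) with its 95% interval from edgeR for the 7 aldo-keto reductases tested (circles) and 3 sums of paralogs (diamonds), in orange if called higher, blue if called lower and grey if not called, with dotted lines at the threshold of 0.36. The AKR1C genes lie farthest to the right, AKR1A1 is at -0.40, and the intervals of AKR7A2 and AKR1E2 cross 0.

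The family's other human members were read from a list of 7 genes. The voltage-gated potassium channel beta subunits, which keep the aldo-keto reductase fold, were the only ones of these with enough counts to be tested. KCNAB1 was called lower, from counts of 105, 54 and 83 to 37, 48 and 53 (log2 fold change -0.81, standard error 0.191, edgeR adjusted p = 0.00563), a call that limma on log2(TPM + 1) did not make (-0.23). KCNAB2 (0.33, standard error 0.0698, adjusted p = 0.00286) and KCNAB3 (0.32, standard error 0.116, adjusted p = 0.0462) passed on p but not on size, and were called higher in 6 and 2 of the 15 alternative fits, both with library sizes alone (0.42 and 0.41). AKR1D1, the steroid beta-reductase of liver, AKR1C8 and AKR7L had at most 10.4 estimated counts in any library.

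The genes next to the AKR1C cluster and AKR1B10 did not share a single direction. Leaving out the 10 genes themselves (AKR1E2 lies between), the 2 nearest protein-coding genes on the lower-coordinate side of the AKR1C cluster were KLF6, 1177972 bases away and encoding a zinc finger transcription factor (log2 fold change 0.11, standard error 0.0796, edgeR adjusted p = 0.288), and PITRM1, 1790412 bases away and encoding a mitochondrial peptidase (0.31, standard error 0.0456, adjusted p = 0.000292), neither of which was called. PITRM1 was called higher in 4 of the 15 alternative fits (0.40 with library sizes alone). AKR1C8 and AKR1C4, on the other side, were not tested. Around AKR1B10, BPGM, the red-cell bisphosphoglycerate mutase, was called higher (0.93, standard error 0.0529, adjusted p = 2.81e-07), CALD1, encoding the actin-binding caldesmon, was called lower (-0.78, standard error 0.0597, adjusted p = 2.26e-06), SLC35B4 was at 0.05 (adjusted p = 0.536), and LRGUK had at most 14 counts in any library.

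A list of 33 genes of the NRF2 axis, which leaves out the aldo-keto reductases, held 8 genes called higher and 3 called lower, with a median log2 fold change of 0.18, beside 9.99% higher, 15.0% lower and a median of 0.003 over all genes tested. NFE2L2 itself went from 42.1 ± 1.70 to 54.4 ± 0.284 TPM (SD, n = 3 each), a log2 fold change of 0.32 (edgeR adjusted p = 0.000112) under the size threshold. KEAP1, which marks NRF2 for degradation, was at 0.31 (adjusted p = 9.84e-05), also under the threshold. With library sizes alone both were called higher, at 0.41 and 0.40, and limma on TPM called NFE2L2 higher (0.36 with 1 added and 0.37 with 0.1 added). BACH1, a repressor at antioxidant response elements, was called lower (-0.39, standard error 0.0583, adjusted p = 0.000327), close to the size threshold, and 6 of the 15 alternative fits did not make the call. Its log2 fold change was -0.30 with library sizes alone, -0.25 and -0.28 by limma on log2(TPM + 1) and log2(TPM + 0.1), -0.31 with transcript length offsets, -0.33 when SCR replicate 3 was left out and -0.34 when TFEB-KD replicate 3 was. HMOX1, heme oxygenase, had TPM of 101.9, 82.6 and 81.1 in SCR and 471.6, 444.8 and 490.5 in TFEB-KD, which gave a log2 fold change of 2.40 (SE 0.0884, edgeR adjusted p = 1.7e-08). GCLC, the catalytic subunit of glutathione synthesis (0.95, adjusted p = 6.24e-07), and GSR, glutathione reductase (0.81, adjusted p = 2.11e-07), were also called higher. NQO1, a quinone reductase, was not called: its TPM was 807.7, 742.4 and 862.9 in SCR and 815.2, 752.0 and 757.5 in TFEB-KD, with overlapping groups (log2 fold change -0.07, standard error 0.0564, 95% interval -0.19 to 0.06, adjusted p = 0.374). Scaled by library size without TMM, 14 genes of the list were called higher.

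Other enzymes that act on aldehydes and ketones were read from a further list. Of 25 tested out of 30 listed aldehyde and alcohol dehydrogenases, carbonyl reductases, short-chain dehydrogenases and prostaglandin reductases, 3 were called higher and 9 lower, with a median of -0.15, beside 9.99% higher, 15.0% lower and a median of 0.003 over all genes tested. CBR1 and CBR3 stand in this list and in the NRF2 list. ALDH1B1, a mitochondrial aldehyde dehydrogenase, had TPM of 25.6, 28.2 and 31.6 in SCR and 12.9, 11.8 and 11.4 in TFEB-KD (log2 fold change -1.31, standard error 0.0789, edgeR adjusted p = 4.2e-07). ALDH4A1, which oxidises glutamate semialdehyde, was at -0.87 (adjusted p = 1.42e-06). DHRS7, a short-chain dehydrogenase, was called higher and had TPM of 151.0, 150.6 and 140.2 in SCR and 285.5, 245.9 and 235.0 in TFEB-KD (0.81, standard error 0.0459, adjusted p = 2.77e-07). The count of 9 lower genes was 5 under limma on TPM and under the fit with transcript lengths as offsets.

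Around AKR1B1, 8 genes of the polyol and glyoxalase pathways were tested. A single gene was called higher, the inositol transporter SLC5A3 (log2 fold change 0.45, edgeR adjusted p = 0.000195, but rounding to 0.36, short of the threshold, by limma on log2(TPM + 1)), and a single gene lower, the glucose transporter SLC2A1 (-0.54, adjusted p = 1.07e-05), whose TPM was 163.9, 167.3 and 179.3 in SCR and 114.6, 125.7 and 118.1 in TFEB-KD. The median of these genes was -0.07. Around the AKR1C genes, 26 of 30 listed genes of steroid and prostaglandin metabolism were tested, with 5 called higher, 6 lower and a median near 0 (-0.00). PTGS1, cyclooxygenase, rose from 48.5 ± 1.63 to 93.4 ± 6.85 TPM (SD, n = 3 each, log2 fold change 0.81, adjusted p = 2.08e-07). NR3C1, the glucocorticoid receptor, was at 0.60 (adjusted p = 2.18e-06), and STS, steroid sulfatase, was at -0.93 (adjusted p = 4.74e-07). The calls in the steroid list, like those in the polyol list, are to be read against 9.99% higher and 15.0% lower over all genes tested.

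**Figure D4:**
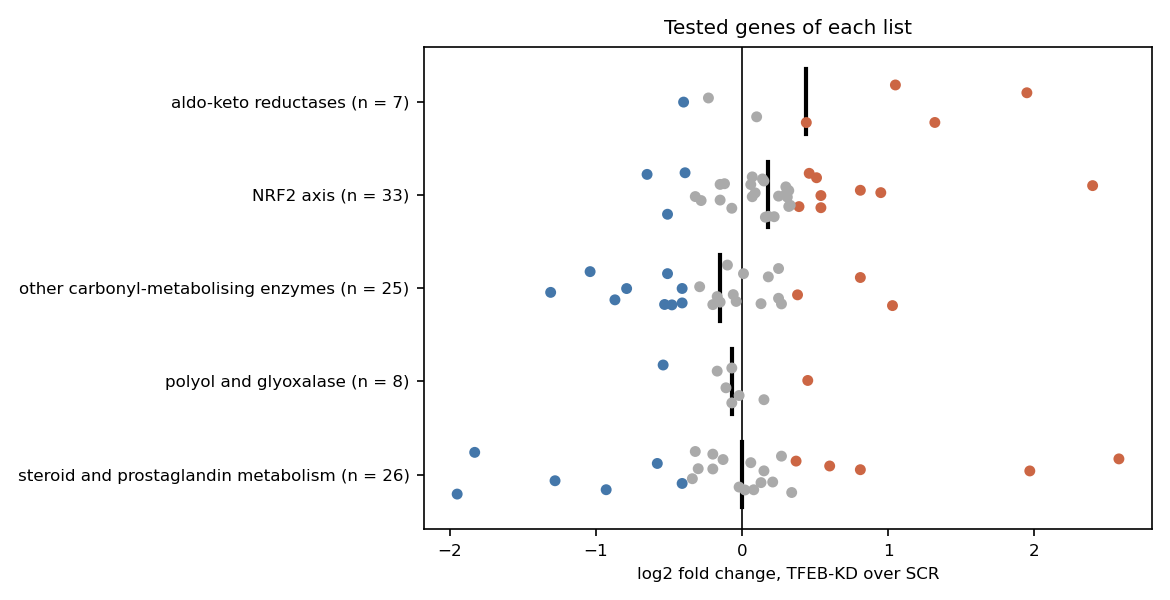
Log2 fold change (TFEB-KD over SCR) of each tested gene in 5 groups of genes, with points in orange if called higher, blue if called lower and grey if not called, and a bar at each group's median. The aldo-keto reductases have a median of 0.44, against 0.18 for the NRF2 axis and -0.15 for other carbonyl-metabolising enzymes.

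The genes whose pattern over the 6 libraries was most like that of the AKR1C sum were sought among 9248 genes with a mean of at least 10 CPM, by the root mean square difference of log2(CPM + 0.5) after subtracting each gene's mean. The nearest were TFPI2, an inhibitor of serine proteases (difference 0.0854 on the log2 scale, log2 fold change 1.40), SMIM3 (0.103, log2 fold change 1.37), ENSG00000227619 (0.106, log2 fold change 1.50), TBX2, a T-box repressor of transcription (0.107, log2 fold change 1.23), and VLDLR, a lipoprotein receptor (0.115, log2 fold change 1.28). The measure is a description over 6 libraries that share their groups and depth.

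**Figure D5:**
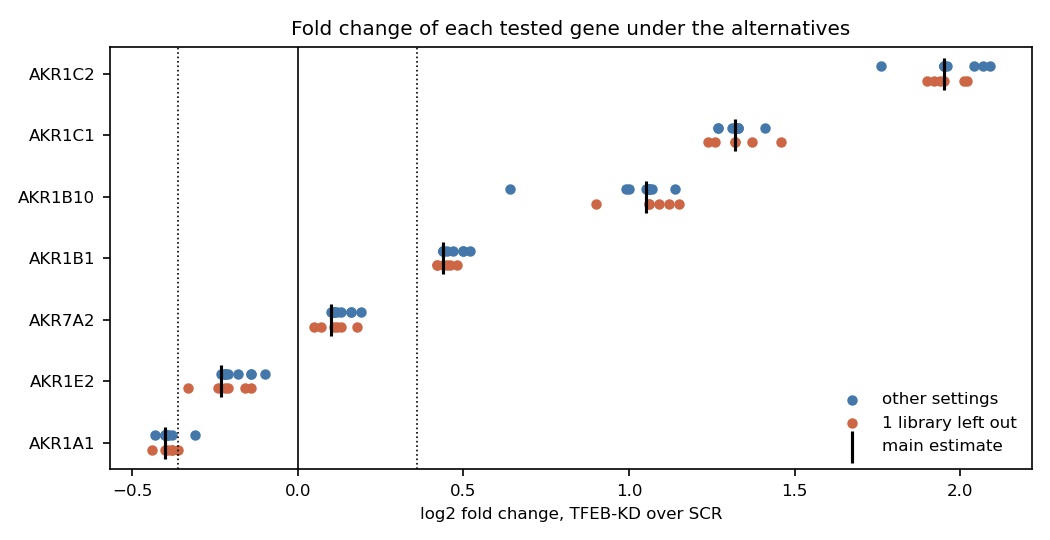
Log2 fold change (TFEB-KD over SCR) of each tested aldo-keto reductase in the main estimate (black line), with 1 library left out (orange, below) and under the other settings (blue, above), with dotted lines at the threshold of 0.36. AKR1C1, AKR1C2, AKR1B10 and AKR1B1 stay to the right of the threshold throughout, while AKR1A1 is at -0.31 and -0.36 under the 2 settings that lose its call.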

How the data were processed

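A SMARTer mRNA-seq kit gave the 3 SCR and 3 TFEB-KD libraries of HFF-2 fibroblasts. Per the submitters' processing notes the authors used Trim Galore, STAR 2.7.10a and Salmon 1.10.1 on hg38, and DESeq2. The deposited estimated counts per gene are not normalized between libraries. The deposited TPM are scaled by the authors' pipeline for transcript length and library total. A table with the authors' own DESeq2 comparison, which holds fold changes and p-values, was not used. The GENCODE release is not given in the sources used here. Of 62754 gene identifiers, 62700 are in GENCODE 44, used for positions and exons, and the other 54 hold 0.0104% of counts. Whether counting used strand is not stated, but no gene overlapping a member shares its exons.

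Counts were rounded, filtered with filterByExpr (16931 of 39439 genes with counts) and compared in R 4.3.3 with edgeR 4.0.16 (TMM, quasi-likelihood test, Benjamini-Hochberg adjustment over all genes tested). CPM use TMM-scaled library sizes, except in the filter. Standard errors are the log2 fold change over the square root of F. Shares and lengths were set against each other by exact permutation (two-sided). Alternatives were DESeq2 1.42.0, RLE factors, library sizes alone, a replicate block, no filter, a minimum of 10 counts per library, limma 3.58.1 on log2(TPM + 1) and log2(TPM + 0.1), transcript length offsets, other fold thresholds and each library left out. The code was tested on simulated data.

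The members and lists were chosen with earlier results of these data known. Besides members, sums and TFEB, the genes named are the other aldo-keto reductases, NFE2L2, KEAP1, BACH1, NQO1, HMOX1, in each list the 3 called genes with the lowest adjusted p, the 5 nearest in pattern to the AKR1C sum and the neighbours of AKR1C and AKR1B10. Marker genes, CBR1 and CBR3 were named to describe their lists. TRIM16L was left out of the NRF2 list, because no single row was matched to its symbol.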

Additional observations from a re-analysis of the deposited data

How the results depend on the processing

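The fold changes of AKR1C1, AKR1C2, AKR1B10, AKR1B1, the AKR1C sum and the AKR1B10 and AKR1B15 sum kept their direction and call in all 15 alternative fits, and AKR1E2 and AKR7A2 were called under none. The 1 call of a lower member, AKR1A1, was lost with library sizes alone and at an absolute log2 fold change over 1, which left 0 members lower (and, at that size, 3 higher, without AKR1B1), and with a library left out in turn the number was 0 to 1 (0 without TFEB-KD replicate 1). Its cause was not tested. With no fold threshold 3498 genes were higher and 4069 lower, and limma on log2(TPM + 1) gave 1668 lower (1965 on log2(TPM + 0.1)), whose cause was not tested. Library sizes alone moved the median of all genes from 0.003 to 0.093. In the polyol list limma on log2(TPM + 1) called 0 genes higher, since SLC5A3 fell under the size threshold. With the replicate number as a block, the AKR1C sum was at 1.40, 1595 genes were higher and 2450 lower, and no member's call changed. Same-numbered libraries did not deviate together (correlations of -0.0714, 0.0762 and 0.0965), so the numbers were not taken as pairs, and not every library correlated best with its own number. Depth limits AKR1B15, AKR1C3 and AKR7A3, where 3 counts correspond to 0.0555 to 0.0797 CPM.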
